A study of Mus musculus with 36 samples.

Results

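In N2a cells, 2 crRNAs against the same message, Map2, were compared in the presence of the active nuclease RfxCas13d. The comparison rests on 4 of the 36 libraries of the series: 2 of cells with RfxCas13d and Map2 crRNA 3, and 2 of cells with RfxCas13d and Map2 crRNA 1, chosen by their labels. N2a is a mouse neuroblastoma line. The cells received plasmids encoding the nuclease and the crRNA, and RNA was taken 48 h after transfection. The paper describes sorting of GFP-positive cells for its tests of crRNA knockdown. Its RNA-seq methods do not say whether the cells of these libraries were sorted. The matching controls were 4 libraries with dRfxCas13d, the catalytically dead form, and the same 2 crRNAs. RfxCas13d and dRfxCas13d with a non-targeting crRNA (NT crRNA) or with no crRNA, and with crRNAs against Rbfox3 (crRNA 5), Mapt (crRNA 4, crRNA 6) and Sik3-S (crRNA 1, crRNA 8), make up the other groups, with 2 libraries in each of the 18 groups. The cells express the nuclease only transiently, and whether both libraries of a group came from different transfections is not told by the labels, so p-values measure only the spread between libraries, which may be technical.

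Cas13 enzymes are RNA-guided ribonucleases. The crRNA spacer pairs with a complementary RNA, and binding switches on a pair of HEPN active sites, which cut the bound RNA and can also cut other RNAs in the cell, the latter being called collateral activity. The dead form still binds but does not cut. Map2 encodes a microtubule-associated protein of neuronal dendrites. The comparison asks whether the RNAs of the cell respond alike to 2 spacers that lower the same message.

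The spacers and their sites are printed because the groups compared differ in nothing else by label. Each spacer has 22 nt and is written 5′ to 3′ as DNA. The sites are shown on the sense strand of mm10 (GRCm38), with the paired bases in capitals and 4 flanking bases on each side in lower case.
Map2 crRNA 1 spacer: actctcaattttcacacgtcca
Map2 crRNA 1 site: gtggTGGACGTGTGAAAATTGAGAGTgtaa
Map2 crRNA 3 spacer: gagcattgtcaagtgagccaac
Map2 crRNA 3 site: taaaGTTGGCTCACTTGACAATGCTCacca
The crRNA 1 site lies at chr1:66438258-66438279 and the crRNA 3 site at chr1:66438316-66438337, both on the plus strand. Both are coding sequence in the same exon, exon 11 of 12 in the transcript Map2-201 of GENCODE vM21. In each of the 9 Map2 transcripts that hold both sites, the starts are 58 nt apart, with 36 nt between the sites. The crRNA 1 site is in 12 of the 24 annotated Map2 transcripts and the crRNA 3 site in 9, so 3 annotated transcripts carry only the former. The GC content is 40.9% for crRNA 1 and 50.0% for crRNA 3.

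Map2 (chromosome 1, 66175273 to 66442583) was lower with the active than with the dead nuclease for both spacers, and its ranges overlapped between the active groups. Values are FPKM as deposited, fragments scaled to the length of the message and the depth of the library. In the active libraries Map2 was at 0.683 and 0.783 FPKM with crRNA 1, and at 0.768 and 0.883 FPKM with crRNA 3. The ranges overlap, and the 4 values lie far under the dead libraries, which were at 9.91 and 10.8 FPKM with crRNA 1 and at 10.1 and 10.9 FPKM with crRNA 3. In the 10 active libraries with the 5 crRNAs of other targets, Map2 was at 5.83 to 8.08 FPKM. Differences are given as log2(FPKM + 1) values, crRNA 3 minus crRNA 1 unless stated, from a limma model of all 36 libraries, with p-values adjusted over the 13293 genes tested. Active minus dead, Map2 differed by -2.67 with crRNA 1 (adjusted p = 5.61e-17) and by -2.64 with crRNA 3 (adjusted p = 8.53e-17). It differed by 0.07 (SE 0.07, adjusted p = 0.713) between the active groups, with a 95% interval from -0.09 to 0.22. The pseudocount of 1 compresses the difference of a gene at such low FPKM. Between the dead groups it differed by 0.03 (adjusted p = 0.916).

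**Figure D1:**
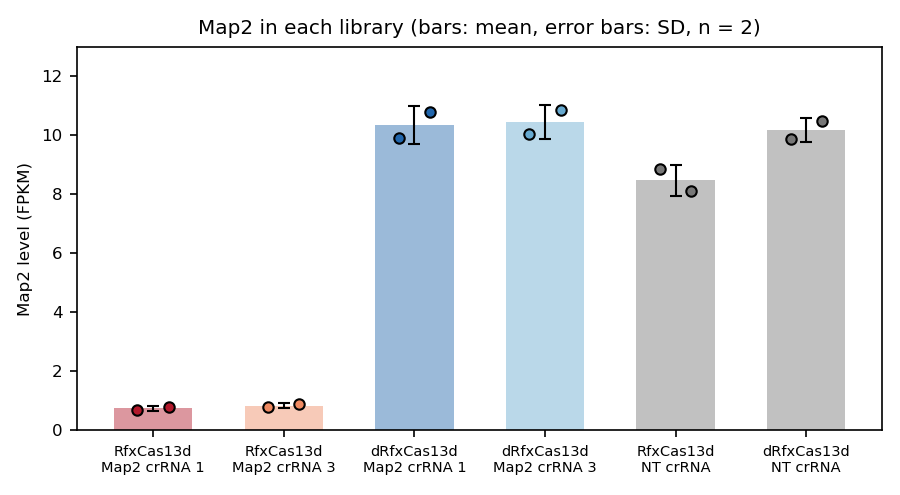
Map2 FPKM (vertical axis, from 0) in each library of 6 groups, with 2 points per group, bars for the mean and error bars for the SD. The 4 active libraries with a Map2 crRNA sit under 1 FPKM, and the libraries of the other 4 groups sit between 8.11 and 10.9 FPKM.

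Between the active groups, 4 genes were higher with crRNA 3 (0.0301% of the genes tested) and 12 were lower (0.0903%), 16 in all (0.12%), at an adjusted p under 0.05 and at least a 2-fold difference. With no fold limit, 139 genes were higher (1.05%) and 203 were lower (1.53%), and 2156 had an unadjusted p under 0.05 (16.2%). Among the 12 lower genes, 8 encode replication-dependent histones, whose messages end in a stem-loop in place of a poly(A) tail. The others were a box C/D snoRNA, a pair of miRNA entries and Cox6a2, a muscle-type subunit of cytochrome c oxidase. With limma fitted to these 4 libraries alone, 0 genes passed with or without the fold limit (2037 had an unadjusted p under 0.05), so the calls depend on the spread estimated over all groups. A fit of the 8 Map2 libraries, added after seeing the data, called 1 gene higher and 3 lower (H3c8, H4c14 and Mir7003 among the lower). Fits without 1 active library, in which the remaining library of its group is assumed to vary like the other groups, called 0 higher and 7 lower genes without crRNA 1 replicate 1, 1 and 4 without crRNA 1 replicate 2, 4 and 6 without crRNA 3 replicate 1, and 6 and 5 without crRNA 3 replicate 2. H2ac15 and H3c8 were called in all 4 of these fits, and H3c2 in 1. The other histones, H4c14, H2ac8, H2bc15, H4c2 and Hist1h2bp, were called in none of them. Snord104, Immp2l and Mir1970 were called in none either. Mir7003 and Mir5621 passed the filter on low values (at least 1 FPKM in at least 2 of the 36 libraries) only through the active Map2 group in which they were high, so their calls support nothing.

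H4c14, a histone H4 gene on chromosome 3 (96261682 to 96263311), had the highest level of the 8 histones. It was at 55.8 and 54.3 FPKM with crRNA 1 and at 18.8 and 19.8 FPKM with crRNA 3, against 2.62 to 3.87 FPKM in the 4 dead libraries. The log2 difference was -1.48 (SE 0.33, adjusted p = 0.022). Both active groups therefore lay above all dead libraries, and crRNA 1 lay above crRNA 3.

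H2ac15, a histone H2A gene on chromosome 13 (21753435 to 21753827), was at 12.8 and 12.2 FPKM with crRNA 1 and at 2.33 and 3.99 FPKM with crRNA 3, a log2 difference of -1.74 (SE 0.27, adjusted p = 0.00102). H3c8, a histone H3 gene on chromosome 13 (23535422 to 23535951), was at 7.44 and 7.76 FPKM and at 2.15 and 1.95 FPKM, a difference of -1.51 (SE 0.23, adjusted p = 0.000934). The dead libraries held both genes under 1 FPKM. H3c2, with a difference of -1.46, H2bc15, with -1.24, and H2ac8, with -1.18, encode a histone H3, an H2B and an H2A. The remaining pair, Hist1h2bp at -1.15 and H4c2 at -1.03, fell outside the rule for named genes and were named after their values were seen. H3c2 was at 2.508 and 3.025 FPKM with crRNA 1, at 0 and 0.892 FPKM with crRNA 3, and at 0.345 to 0.754 FPKM in the dead libraries. H2ac8 was at 1.035 and 0.66 FPKM with crRNA 3, and Hist1h2bp at 1.19 and 0.685 FPKM. The crRNA 3 values of H3c2, H2ac8 and Hist1h2bp thus lie near or under the pseudocount of 1. Histone genes have near-identical copies, and the counting could split their reads, so the values of single copies are uncertain.

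The snoRNA was Snord104, a guide of ribosomal RNA methylation (chromosome 11, 106500993 to 106501062). It was at 460 and 393 FPKM with crRNA 1 and at 177 and 196 FPKM with crRNA 3, and at 12.8 to 25.8 FPKM in the dead libraries. The difference was -1.21 (SE 0.28, adjusted p = 0.0235). The ratio between the active groups was thus much smaller than that between either of them and the dead libraries. Among the 7 active groups with a targeting crRNA, the crRNA 1 mean of H4c14, H2ac15, H3c8 and Snord104 ranked first for each. The crRNA 3 mean ranked 6th for Snord104 and 7th for the 3 histones. These genes were picked for being lower with crRNA 3 than with crRNA 1, which favours such ranks, so the ranks add no support.

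The other calls rest on few fragments. The number of fragments was estimated from the smallest steps in the FPKM of short genes. Mir1945 had about 5 and 4 fragments with crRNA 1 and 1 and 0 with crRNA 3, and Mir7003 had about 2 and 2 with crRNA 1 and was listed at 0 with crRNA 3. Mir1970 and Mir5621, both higher with crRNA 3, were listed at 0 in the 2 crRNA 1 libraries. Mir1970 had about 5 and 8 fragments with crRNA 3, and Mir5621 had 1 and 1. Mir7035 was at 0 and 0.832 FPKM with crRNA 1 and at 3.52 and 7.19 FPKM with crRNA 3. Entries of this kind are hairpin loci within or beside other transcripts, and the values do not measure mature miRNAs. Cox6a2 was at 2.83 and 5.69 FPKM with crRNA 1 and at 1.61 and 0.224 FPKM with crRNA 3, about 2 fragments in the last library, with a difference of -1.51 (SE 0.38, adjusted p = 0.0344).

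Immp2l, which encodes a subunit of the mitochondrial inner membrane peptidase (chromosome 12, 41024090 to 41955588), was the one protein-coding gene called higher. It was at 0.301 and 0.654 FPKM with crRNA 1 and at 1.93 and 2.19 FPKM with crRNA 3, a difference of 1.05 (SE 0.24, adjusted p = 0.0235). The dead libraries were ordered the same way, at 2.02 and 1.55 FPKM with crRNA 1 and at 3.15 and 3.20 FPKM with crRNA 3, with a difference of 0.60 that did not pass the test (adjusted p = 0.243). In both the active and the dead nuclease, the crRNA 1 group had the lowest mean of the 7 targeting groups and the crRNA 3 group the highest. The active ranks are favoured by the choice of the gene and add no support.

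**Figure D2:**
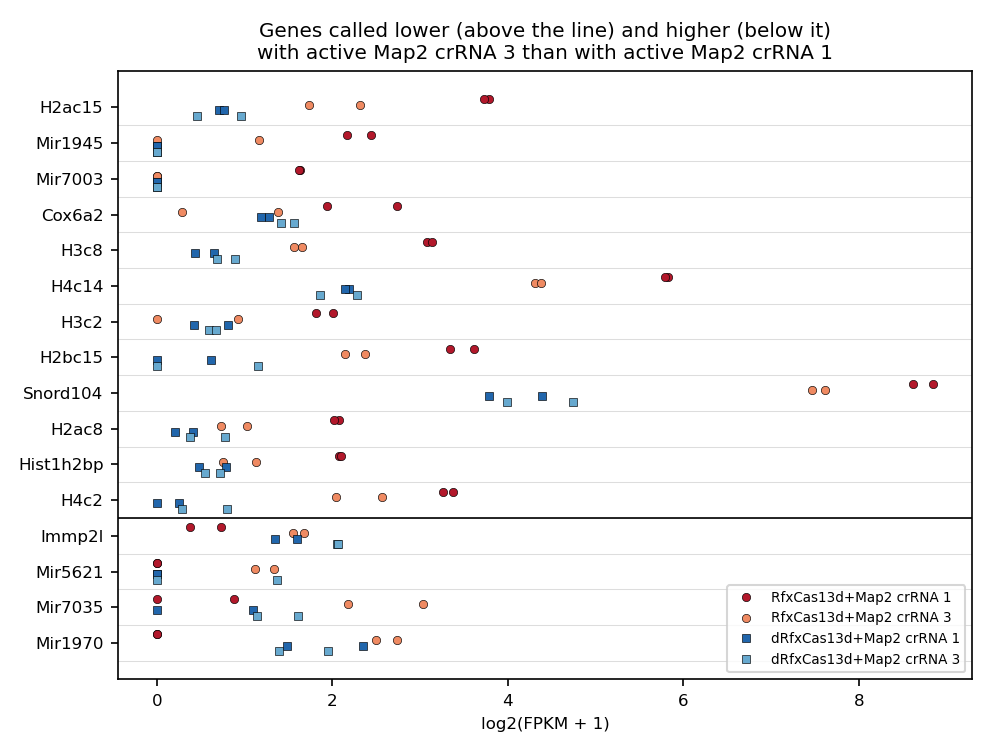
log2(FPKM + 1) of the 16 called genes in the 8 Map2 libraries, with circles for RfxCas13d and squares for dRfxCas13d. The 12 genes above the line are lower with active crRNA 3, for example H4c14 at 18.8 and 19.8 FPKM against 55.8 and 54.3 FPKM, and the 4 below it are higher.

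Gene lists were described by their counts and medians, beside a median of 0.00 over all genes tested in the same comparison. Members are counted here without the fold limit, against 1.53% of all genes lower and 1.05% higher. Of the 55 replication-dependent histones tested, 12 were lower at an adjusted p under 0.05 and 0 higher, with a median difference of -0.80, and 2 of the 55 lay above 0. The summed FPKM of the list was 640 and 583 with crRNA 1, 343 and 315 with crRNA 3, and 99.9 to 106 in the dead libraries. Against their own dead group, 45 of the 55 were called higher with crRNA 1 and 21 with crRNA 3, where 2.33% and 0.873% of all genes were. Between the dead groups, where 1.37% of all genes were higher without the fold limit and 0.7% lower, 0 of the 55 passed. Histone variants, most of which can be made outside S phase from polyadenylated messages, had a median of -0.23 over 10 genes, of which 3 were lower. H1f0, the linker histone of resting cells, was at 569 and 572 FPKM with crRNA 1 and at 485 and 457 FPKM with crRNA 3 (difference -0.29, adjusted p = 3.47e-05). H3f3b, a source of histone H3.3, differed by -0.14 (adjusted p = 0.0161).

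Of 96 snoRNA entries tested, 2 were lower, Snord104 and Snord96a, and the median was -0.49. Snord96a was at 179 and 175 FPKM with crRNA 1 and at 113 and 113 FPKM with crRNA 3, and its difference was -0.67 (adjusted p = 0.00552). For this snoRNA the crRNA 3 libraries lay within the range of the dead libraries, 88.8 to 117 FPKM. Of 17 genes that host snoRNAs in their introns, Gas5 (-0.42, adjusted p = 0.00266) and Snhg1 (-0.29, adjusted p = 0.0222) were lower, and the list had a median of -0.24. Of 17 other short RNAs without a poly(A) tail, 0 passed, with a median of -0.51, whereas over their dead groups 4 of 17 were called higher and 0 lower with crRNA 1, and 3 higher and 2 lower with crRNA 3.

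Of 57 ribosome biogenesis factors, 12 were lower and 0 higher, with a median of -0.11. Nop56, a core protein of box C/D snoRNPs, was at 292 and 293 FPKM with crRNA 1 and at 230.2 and 225 FPKM with crRNA 3, against 164 to 178 FPKM in the dead libraries (difference -0.38, SE 0.03, adjusted p = 3.87e-07). Between the dead groups, 3 of the 57 were higher with crRNA 3, namely Fbl, Nop58 and Nop56, and Nop2 was lower. Gnl3, the nucleolar GTPase nucleostemin, differed by -0.29 (adjusted p = 0.000246). Of 85 cytosolic ribosomal proteins, 6 were lower and 0 higher, with a median of -0.19. Rpl36, a protein of the large subunit, was at 245 and 242 FPKM with crRNA 1 and at 168 and 171 FPKM with crRNA 3 (difference -0.53, adjusted p = 0.00142). The ribosomal protein list also differed between the dead groups, in the opposite direction, with 29 of 85 higher with dead crRNA 3, 1 lower and a median of 0.24. Of 71 translation factors, Eef1a2, Eif4a1, Eif2b5 and Eif4a2 were lower, with a median of -0.06, and Eif4a1, the helicase of the cap-binding complex, had a difference of 0.52 in the dead groups (adjusted p = 0.000502) against -0.39 in the active ones (adjusted p = 0.0111).

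Gadd45g, a stress sensor induced by growth arrest, was at 238 and 245 FPKM with crRNA 1, at 171 and 165 FPKM with crRNA 3 and at 77.4 to 83.3 FPKM in the dead libraries. Its difference was -0.54 (SE 0.05, adjusted p = 4.31e-07), and Gadd45a and Gadd45b were lower too, 3 of the 24 genes of the Gadd45 and p53 target list, which had a median of -0.06. Of 35 immediate early genes, 7 were lower, namely Junb, Ier2, Jun, Klf10, Ier5l, Nr4a3 and Maff, and 0 were higher, although the list's median was -0.05. Junb, a subunit of the AP-1 transcription factor, was at 246 and 242 FPKM with crRNA 1 and at 183 and 192 FPKM with crRNA 3, against 103 to 112 FPKM in the dead libraries (difference -0.39, adjusted p = 6.50e-05). Ier2 was at 119 and 119 FPKM, at 93.7 and 93.7 FPKM and at 73.2 to 75.6 FPKM in the same order (difference -0.36, adjusted p = 0.000206). Among 39 targets of the integrated stress response, Atf4, its transcription factor, was lower (-0.24, adjusted p = 0.000766) together with Nars, and Iars was higher. Among 31 chaperones, Hspd1 (-0.18, adjusted p = 0.00133), Hsp90aa1 and Hspa5 were lower. Between the dead groups, Hspa5 and Hsp90b1 were higher with crRNA 3.

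Of 42 interferon-stimulated genes, 3 were higher and 0 lower, with a median of 0.13. Xaf1, a proapoptotic gene, was at 3.01 and 2.63 FPKM with crRNA 1, at 5.00 and 4.54 FPKM with crRNA 3 and at 6.87 to 9.33 FPKM in the dead libraries (difference 0.58, adjusted p = 0.0101). Oasl2 differed by 0.41 (adjusted p = 0.0435), and by -0.43 between the dead groups (adjusted p = 0.0387), and the list's median there was -0.19. Of 55 RNA decay factors, 1 was higher and 2 were lower. Smg6, the endonuclease of nonsense-mediated decay, was at 11.4 and 10.8 FPKM with crRNA 1, at 14.1 and 14.2 FPKM with crRNA 3 and at 29.4 to 31.3 FPKM in the dead libraries (difference 0.31, adjusted p = 0.000934). Of 45 neuronal and synaptic genes, Eno2, Syt1 and Ncam1 were higher, with a median of 0.03. For Syt1, the calcium sensor of synaptic vesicles, the difference was 0.23 (adjusted p = 0.037).

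For the genes Slc2a1 and Eno2 the dead groups differed in the same direction. Slc2a1, the glucose transporter GLUT1, was at 25.6 and 26.3 FPKM with active crRNA 1 and at 32.8 and 32.4 FPKM with active crRNA 3 (difference 0.30, adjusted p = 0.0054). Between the dead groups, at 28.7 and 25.7 against 39.5 and 37.1 FPKM, the difference was 0.50 (adjusted p = 7.87e-06). Of 29 genes of hypoxia and glycolysis, 4 were higher between the active groups, with a median of 0.04, and 17 between the dead groups, with a median of 0.28. Eno2, a neuronal enolase, also differed in both, by 0.32 (adjusted p = 0.00102) and 0.38 (adjusted p = 9.33e-05).

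Other lists of housekeeping genes held few calls. Of 78 mitochondrial ribosomal proteins 1 was lower, of 85 nuclear-encoded respiratory chain genes 2, of 37 proteasome subunits 2 and of 31 Sm and LSm proteins of the spliceosome 2, with 0 higher in each and medians from -0.11 to -0.06. In the lists of microtubule-associated proteins (36 tested), tubulins and neurofilaments (19), G2/M genes (44) and cholesterol synthesis (23), 0 genes passed between the active groups, and the medians lay between -0.07 and 0.00. Mapt, which encodes tau, was at 15.0 and 17.4 FPKM with crRNA 1 and at 16.4 and 15.8 FPKM with crRNA 3, with overlapping ranges and a difference of -0.02 (adjusted p = 0.931).

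**Figure D3:**
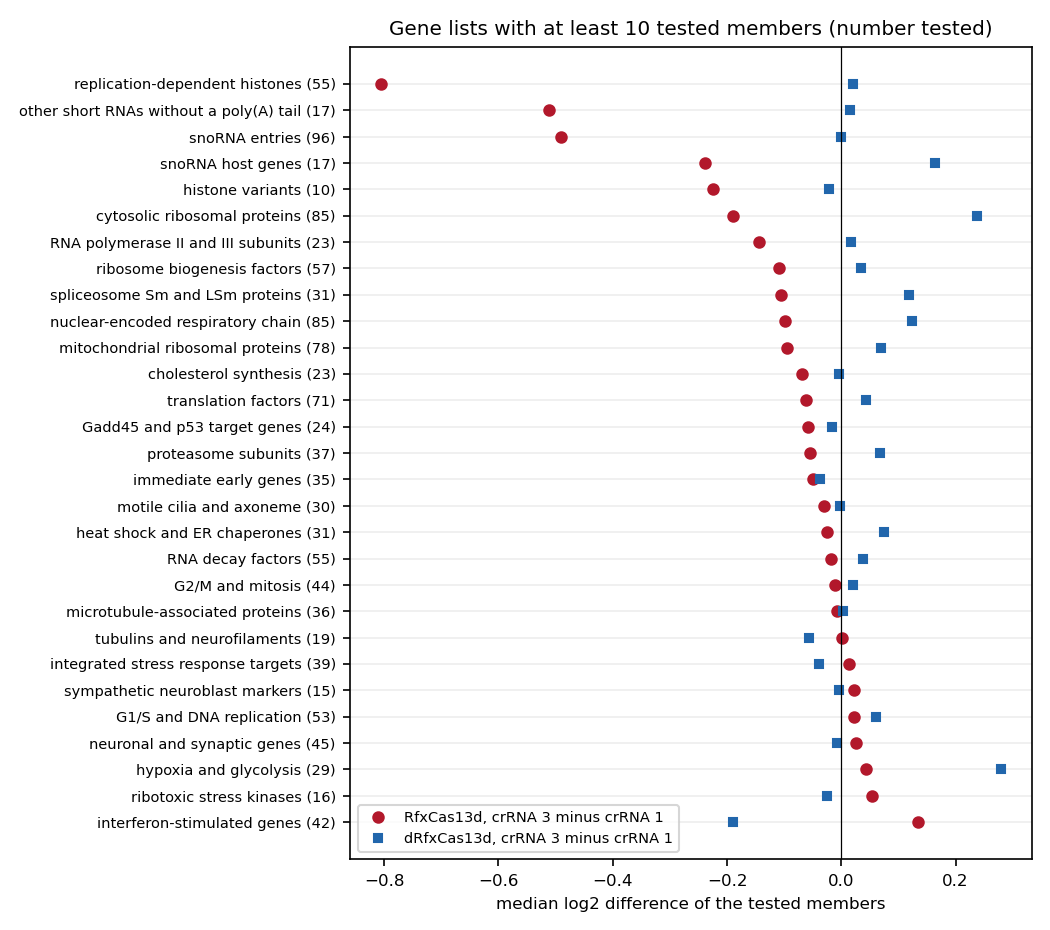
Median log2 difference (horizontal axis), crRNA 3 minus crRNA 1, of each gene list with at least 10 tested members, in circles for RfxCas13d and squares for dRfxCas13d, with the number tested in brackets. Histones (-0.80), other short RNAs (-0.51) and snoRNAs (-0.49) lie farthest left for RfxCas13d, and the ribosomal proteins lie on opposite sides of 0 at -0.19 and 0.24.

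The wider response was then read in genes picked by a comparison that takes no level from the Map2 libraries. Those libraries still entered the estimate of spread, the scaling and the filter on low values. In the 20 libraries of the other 5 targeting crRNAs, active against dead, 241 genes were higher on average (1.81% of those tested) and 100 were lower (0.752%). The dead libraries of Mapt crRNA 4, Mapt crRNA 6 and Rbfox3 crRNA 5 are among the 20. They shared levels of Rps10, Gm6654 and Snord2 with dead Map2 crRNA 3, as given below. The effect of this on the choice of genes was not tested. The 241 include 37 histones, 50 snoRNA entries, 18 cytosolic ribosomal proteins and 109 genes in none of the lists. Against the dead NT crRNA libraries, the median of the 241 was 1.47 and 1.37 in the active crRNA 1 libraries and 0.96 and 0.97 in the active crRNA 3 libraries. It was 0.42 and 0.39 with active NT crRNA, -0.04 and 0.07 with RfxCas13d alone, and -0.03 to 0.03 in the 4 dead Map2 libraries. The crRNA 3 libraries therefore lay between those with crRNA 1 and those with NT crRNA, without overlap. For the 100 lower genes the order was the same, with -1.30 and -1.30 for crRNA 1, -1.16 and -1.12 for crRNA 3, and -0.61 and -0.62 for NT crRNA, and the gap between the Map2 crRNAs was smaller.

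Gene by gene, 222 of the 241 were below 0 between the active groups (92.1%, as against 50.6% of all genes tested), with a median of -0.41 and quartiles of -0.68 and -0.22. Of the 241, 41 were lower at an adjusted p under 0.05 and 0 were higher, against 1.53% and 1.05% of all genes tested. Of the 100, 77 were above 0 and 23 below (23.0%, as against 50.6% of all genes tested), with a median of 0.16. At an adjusted p under 0.05, 9 of the 100 were higher and 0 were lower, against the same 1.05% and 1.53%. Between the dead groups the medians were 0.04 and -0.09. By kind of gene within the 241, the median was -0.89 for the histones, -0.54 for the snoRNA entries, -0.31 for the ribosomal proteins and -0.32 for the genes in no list. Split into 4 groups of 60 or 61 genes by the size of the response to the other crRNAs, the 241 had medians of -0.29, -0.35, -0.54 and -0.64 from the smallest to the largest response.

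Several protein-coding genes outside the lists show the pattern, and were named after their values were seen, as those of lowest p among the response genes in no list. Txnip, an inhibitor of thioredoxin, was at 201 and 199.8 FPKM with active crRNA 1, at 152 and 155 FPKM with active crRNA 3, and at 91.2 to 93.6 FPKM in the dead libraries (difference -0.39, SE 0.04, adjusted p = 2.94e-06). Rpp25, a protein subunit of RNase P and RNase MRP, was at 57.9 and 54.4 FPKM, then at 40.5 and 35.6 FPKM, and at 17.6 to 19.5 FPKM in the dead libraries (difference -0.57, adjusted p = 0.00102). In the other direction Myrfl was at 0.644 and 0.613 FPKM with crRNA 1, at 2.07 and 1.92 FPKM with crRNA 3 and at 6.42 to 7.67 FPKM in the dead libraries (difference 0.87, SE 0.15, adjusted p = 0.00209). Plcb4, a phospholipase C, was at 14.6 and 15.7 FPKM, then at 18.6 and 19.5 FPKM, and at 32.3 to 34.4 FPKM (difference 0.29, adjusted p = 0.0194). In each of these 4 genes the crRNA 3 libraries lay between the crRNA 1 and the dead libraries. That position is largely fixed by how the 4 genes were picked, so it adds no support.

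**Figure D4:**
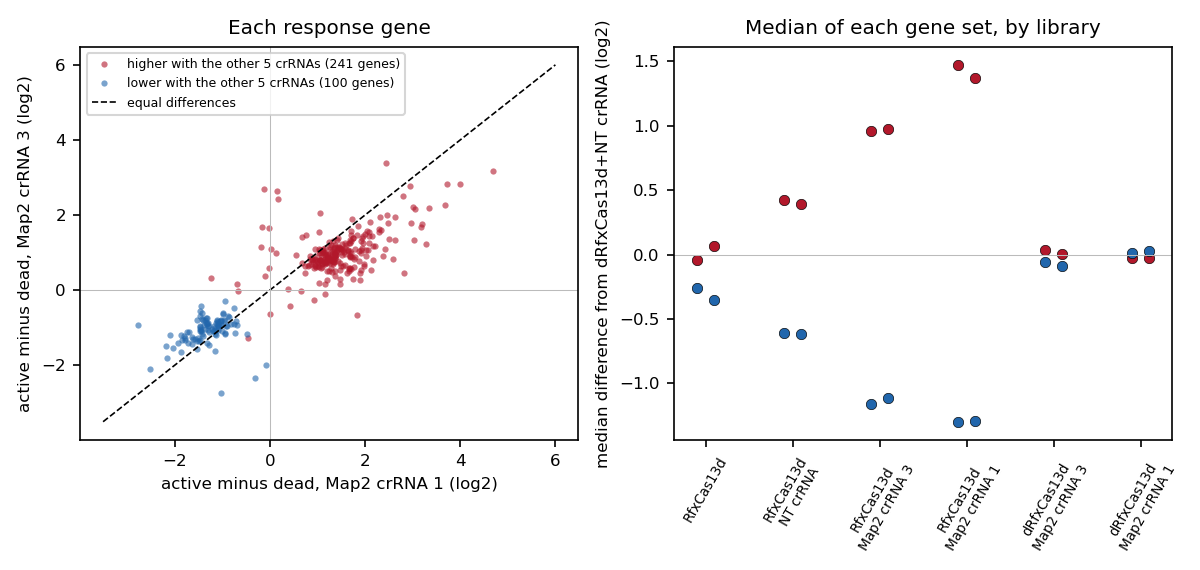
Left, the active minus dead log2 difference of each response gene with Map2 crRNA 1 (horizontal) and crRNA 3 (vertical), where the dashed line marks equal differences. Right, the median log2 difference of each gene set from dRfxCas13d with NT crRNA in single libraries, red for the 241 higher genes and blue for the 100 lower ones, with medians of 1.47 and 1.37 for active crRNA 1 against 0.96 and 0.97 for active crRNA 3.

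Counted against their own dead group, 310 genes were called higher (2.33%) and 172 lower (1.29%) with crRNA 1, and 116 higher (0.873%) and 75 lower (0.564%) with crRNA 3. These counts and their balance moved with the processing: a pseudocount of 0.1 gave 455 higher and 517 lower genes with crRNA 1 and 223 and 327 with crRNA 3, and removing the trend with exon length gave 194 and 237, and 73 and 98. The higher lists share 88 genes, 28.4% of the crRNA 1 list and 75.9% of the crRNA 3 list, and the lower lists share 49, 28.5% and 65.3%. These comparisons have no library in common. Of the 310 genes called higher with crRNA 1, 295 were above 0 with crRNA 3, with a median of 0.82, and 237 were higher without the fold limit, as were 23.2% of all genes. Of the 172, 168 were below 0, with a median of -0.82, and 133 were lower, as were 22.9% of all genes. In the other direction, 111 of the 116 genes called higher with crRNA 3 were above 0 with crRNA 1, with a median of 1.55, and 70 of the 75 called lower were below 0, with a median of -1.20. Without the fold limit the counts were closer, at 52.8% of all genes for crRNA 1 and 46.1% for crRNA 3.

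Read against the dead libraries of the other Map2 crRNA, crRNA 1 gave 297 higher and 126 lower genes (2.23% and 0.948%) and crRNA 3 gave 135 and 126 (1.02% and 0.948%), so the lower genes were equal in number. Read against dRfxCas13d with NT crRNA, the counts were 302 and 184 for crRNA 1 (2.27% and 1.38%), and 138 and 143 for crRNA 3 (1.04% and 1.08%). Against RfxCas13d with NT crRNA, which shares the active nuclease, crRNA 1 gave 137 higher and 26 lower genes (1.03% and 0.196%) and crRNA 3 gave 23 and 24 (0.173% and 0.181%). The number of higher genes was larger with crRNA 1 under each of these 4 baselines.

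Genes also differed between the dead groups. With dead crRNA 3, 12 genes were higher (0.0903%) and 3 lower (0.0226%), 15 in all (0.113%). A fit of the 4 dead libraries alone called 0 higher and 1 lower (1849 had an unadjusted p under 0.05), and the fit of the 8 Map2 libraries 6 and 1. Rps10, a protein of the small ribosomal subunit, was at 34.0 and 34.9 FPKM with dead crRNA 1 and at 85.5 and 95.3 FPKM with dead crRNA 3, a difference of 1.38 (SE 0.10, adjusted p = 1.51e-08). Rps16, Rps6 and Rps29, Ndufa12, a subunit of respiratory complex I, and the gene models Gm6654, Gm6402, Gm7429, Rps15a-ps6 and Hnrnpa1l2-ps2 were higher as well, along with Mir3569 and Mirlet7i, which were listed at 0 with dead crRNA 1. Snord2 was at 51.6 and 53.6 FPKM with dead crRNA 1 and at 8.64 and 8.75 FPKM with dead crRNA 3 (difference -2.45, SE 0.60, adjusted p = 0.0339).

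Some of these genes had like levels in other dead groups. Rps10 was at 77.6 to 89.1 FPKM in dRfxCas13d with Mapt crRNA 4, Mapt crRNA 6 and Rbfox3 crRNA 5, and at 33.9 to 46.1 FPKM in the dead groups with no crRNA, NT crRNA, Sik3-S crRNA 1 and Sik3-S crRNA 8. Gm6654, at 24.7 and 25.8 FPKM with dead crRNA 3 and 7.11 and 8.21 FPKM with dead crRNA 1, was at 3.54 to 8.33 FPKM in all 18 active libraries. Snord2 was at 0 to 11.4 FPKM in the same 3 dead groups. Others did not follow them: Mirlet7i was listed at 0 in all 6 libraries of these 3 groups, Mir3569 in 5, and 3300002I08Rik, called lower with dead crRNA 3 at 0.259 and 0.612 FPKM, was at 0.777 to 2.55 FPKM there. The labels give no difference in handling between these dead groups, and what sets them apart was not tested. The counts of crRNA 3 against its own dead group and the interaction both carry the difference between the dead groups. The direct comparison of the active groups takes no level from the dead libraries, which enter it through the estimate of spread, the scaling and the choice of the genes tested.

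**Figure D5:**
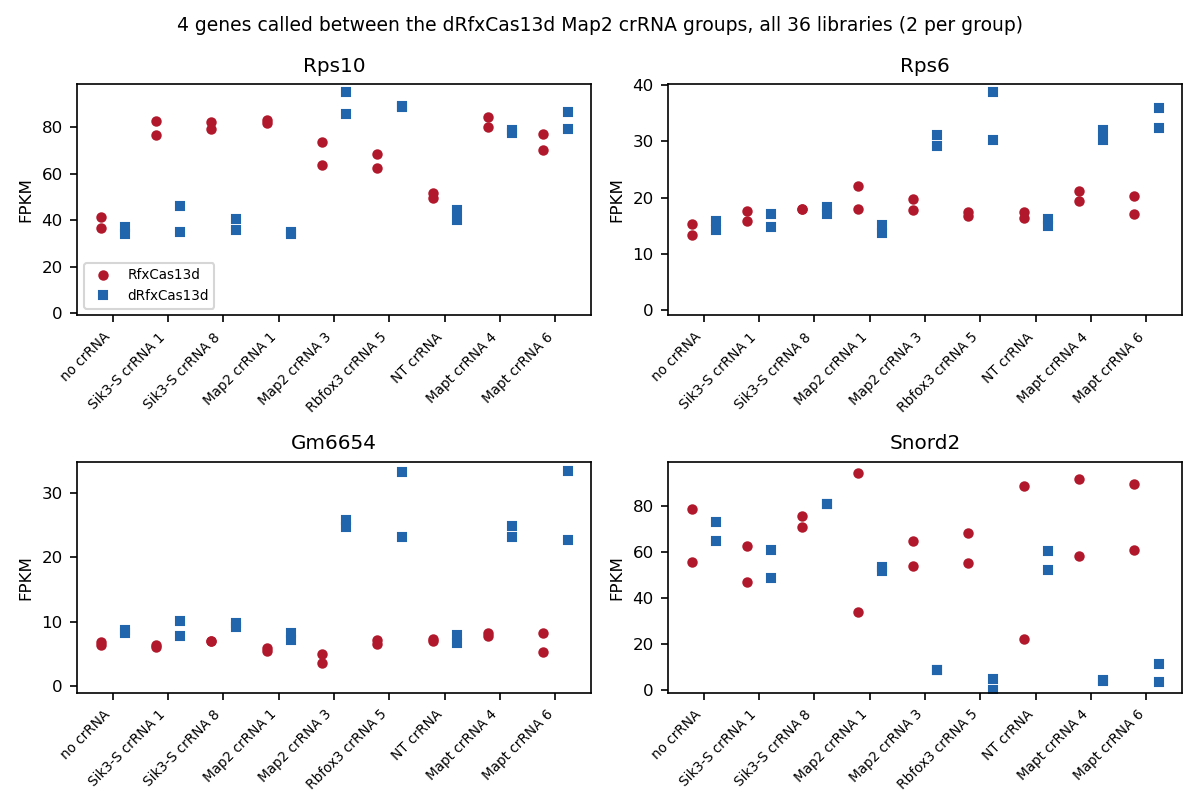
FPKM of Rps10, Rps6, Gm6654 and Snord2 in all 36 libraries by crRNA, with circles for RfxCas13d and squares for dRfxCas13d. In dRfxCas13d, Map2 crRNA 3 sits with Rbfox3 crRNA 5 and Mapt crRNA 4 and 6, with Rps10 at 77.6 to 95.3 FPKM, whereas Map2 crRNA 1 is at 34.0 and 34.9 FPKM.

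The interaction tested whether the crRNA difference itself differs between the active and the dead nuclease. It called 2 genes higher (0.015%) and 29 lower (0.218%), and 3 and 9 when fitted to the 8 Map2 libraries alone. Of the 29, the difference was larger in size between the dead groups for 19 and between the active groups for 10, and the medians over the 29 were -0.45 between the active and 0.74 between the dead groups. Among the genes whose active difference was the larger were the histones H2ac15, H2ac8, H3c8 and H4c2 and Snord104. For H3c8 the interaction was -1.76 (adjusted p = 0.00397), with a dead difference of 0.25. For Rps10 the interaction was -1.66 (adjusted p = 3.72e-07), with an active difference of -0.28 that did not pass (adjusted p = 0.131). Over the 241 response genes the interaction had a median of -0.43, close to the active difference alone, and 29 of them were lower and 0 higher at an adjusted p under 0.05, as against 2.02% and 0.647% of all genes tested.

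No transcript other than Map2 matched either spacer with 1 to 3 mismatches. With 4 mismatches, 7 genes matched each spacer. Of these, 6 were tested for crRNA 1 (Cdnf, Cnrip1, Gatad2a, Pter, Sgsh and Ube4a) and 2 for crRNA 3 (Rnf187 and Zfp646), and 0 of the 8 were called between the active groups. Gatad2a, a subunit of the NuRD complex that matches crRNA 1, was at 32.2 and 35.4 FPKM with active crRNA 1 and at 38.5 and 39.2 FPKM with active crRNA 3 (difference 0.18, adjusted p = 0.0329). The dead libraries were at 34.6 to 38.4 FPKM. Gatad2a also passed in the interaction (0.27, adjusted p = 0.0241), and Cnrip1, a protein that binds the cannabinoid receptor CB1, passed between the dead groups (difference 0.44, adjusted p = 0.0224). Between the active groups the 7 genes other than Gatad2a did not pass at any fold.

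The other pairs of crRNAs against 1 gene were read in the same way. Between active Sik3-S crRNA 8 and crRNA 1, 4 genes were higher and 3 lower (0.0301% and 0.0226%), and between active Mapt crRNA 6 and crRNA 4, 3 were higher and 2 lower (0.0226% and 0.015%). Without the fold limit 222 and 278 genes passed (1.67% and 2.09%), as against 342 for Map2 (2.57%). The difference between these counts was not tested. Between the dead groups limma called 0 genes for Sik3-S (0%), with 1679 at an unadjusted p under 0.05 (12.6%), and 2 for Mapt (0.015%), as against 15 for Map2.

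The estimated depth was 14379827 and 14579904 fragments in the active crRNA 1 libraries, 10397150 and 13482818 in the active crRNA 3 libraries and 10023390 to 11871352 in the dead Map2 libraries. The summed FPKM was 415089 and 409389 with active crRNA 1, 403024 and 397060 with active crRNA 3 and 366402 to 371444 in the dead libraries. Exon length moved with the comparison: between the active groups the median was -0.12 for genes with 300 to 1000 nt of exon and 0.02 for those with at least 4000 nt. The 507 genes under 300 nt, among them snoRNA and miRNA entries, did not follow this order, with a median of 0.00, 4 higher and 4 lower. That median does not describe the snoRNA entries, whose list had a median of -0.49 over 96 tested. Nor does it describe the list of 17 other short RNAs, at -0.51. The part of length in the results was not tested beyond removing the trend. Of 18 markers of sympathetic neuroblasts, 15 were at 1 FPKM or more in all 8 libraries, and Ddc was higher and Mycn lower with active crRNA 3. The summed FPKM of 10 leukocyte markers was 3.0 to 5.8, of 10 glial markers 2.9 to 4.5, and of 15 liver transcripts 1.3 to 1.7 in the active and 5.4 to 14.1 in the dead libraries. The 10 fibroblast markers summed to at most 147, of which Fbln1, at 117 to 141 FPKM, was the most (active difference 0.14, adjusted p = 0.0194), and Col1a1 was at 0.334 to 1.39 FPKM.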

How the data were processed

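Reads were cleaned with Trim Galore, mapped with Subread (mm10) and assigned to genes with featureCounts, and the authors deposited FPKM to 3 decimals. Tool versions, annotation and strand setting: not given in the sources used here. For their own comparisons the authors used DESeq2. No counts were used here, since the table holds none.

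FPKM were divided by median-of-ratios factors and fitted as log2(FPKM + 1) with limma 3.58.1 (R 4.3.3), with 1 mean for each of 18 groups, an intensity trend and Benjamini-Hochberg adjustment. Genes with at least 1 FPKM in at least 2 of 36 libraries were tested. With 2 libraries against 2, an exact permutation test cannot go below p = 0.333. On simulated data, 100% of genes changed 2.5-fold and 0% of those changed 1.5-fold were called (92% without the fold limit). There was 1 false call, and 13 without the fold limit. The changes were planted only in genes with a mean of about 5 FPKM or more, with independent noise. The detection rates therefore do not cover lower genes, H2ac15, H3c8, H3c2 and Immp2l among those called. Of the called genes, only H4c14 and Snord104 reached a mean of 5 FPKM.

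Named genes were the 10 largest called differences in each direction without overlap, the largest of the dead comparison and the interaction, the targets, the 2 of lowest p in each list and the near matches. The members and lists were chosen with earlier results of these data known. Fragment estimates were whole within 0.05 for 67.5 to 82.6% of the values used. Replicate numbers did not pair the libraries (correlations of deviations from -0.067 to 0.058). Exon lengths and positions came from GENCODE vM21 and mm10. Alternatives covered the pseudocount, filter, scaling, libraries, replicate block, exon length, dead baseline and mismatches.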

Additional observations from a re-analysis of the deposited data

Results flagged for a closer look

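The difference between crRNA 3 and crRNA 1 itself differed between the active and the dead nuclease for 2 genes upward and 29 downward, by the interaction in limma at an adjusted p under 0.05 and at least 2-fold. The upward genes were Apol9b, an apolipoprotein L family gene, with an interaction of 1.24 (active difference 0.76, dead difference -0.48), and Rpl35a, a ribosomal protein gene, with 1.01 (0.17 and -0.84). Of the downward genes, H3c8 had an interaction of -1.76 (-1.51 and 0.25) and Mir186 had -2.75 (-1.43 and 1.32, neither past the test alone). Gm6654 had -2.01 (-0.39 and 1.62), Gm7429 had -1.96 (-0.39 and 1.56) and Rps29 had -1.83 (-0.45 and 1.38), so for these 3 the dead difference was the larger in size.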

How the results depend on the processing

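Between the active groups (4 genes higher, 12 lower, 342 of any fold), all 16 called genes kept their direction in each of the alternatives that tested them, which for Mir7003 and Mir5621 the filter fixes, and H2ac15 and H3c8 were called in each fit without 1 active Map2 library. Leaving out 1 library at a time gave 0 to 6 higher, 4 to 7 lower and 52 to 99 genes of any fold; for the dead groups (12, 3 and 275) 5 to 12, 1 to 5 and 74 to 106; for the interaction (2, 29 and 354) 1 to 8, 16 to 31 and 145 to 237. Without RfxCas13d+NT crRNA replicate 1, 11 genes were lower and 310 differed at any fold between the active groups, and 248 and 316 at any fold between the dead groups and in the interaction. The 241 response genes kept a median of -0.45 to -0.36 and the 100 of 0.14 to 0.18, and Map2 a difference of 0.02 to 0.11. The 4 comparison libraries alone gave 0 higher, 0 lower and 0 of any fold for the active groups, 0, 1 and 1 for the dead groups, and, from 8 libraries, 9 lower and 32 of any fold for the interaction. The 8 Map2 libraries gave 1, 3 and 16 for the active and 6, 1 and 12 for the dead groups. A pseudocount of 0.5 or 0.1 gave 7 lower genes between the dead groups and 7 or 10 higher in the interaction; for active against dead it gave 335 or 517 lower genes with crRNA 1 and 176 or 327 with crRNA 3, with 223 higher for crRNA 3 at 0.1. A mean FPKM of at least 5 left 0 higher and 2 lower active genes and 1 lower dead gene. For active against dead it left 44 lower with crRNA 1, and 71 higher and 18 lower with crRNA 3. The higher response genes were picked again under this setting, which gave 154 genes with a median of -0.36. Quantile normalization gave 1 higher in the interaction. Removing the length trend gave 201 active genes of any fold and 18 lower in the interaction. For active against dead it gave 194 and 73 higher genes with crRNA 1 and crRNA 3. The higher response genes, picked again, were then 155, with a median of -0.46. With the replicate block, 5 genes were higher and 13 lower between the active groups. The block with the length trend removed gave 7 lower and 193 of any fold between the active groups. In the interaction it gave 18 lower and 233 of any fold. For active against dead it gave 196 and 73 higher genes with crRNA 1 and crRNA 3. The median was -0.46 over 155 response genes picked again. Other dead baselines gave 126 (the other Map2 crRNA) and 143 (NT crRNA) lower genes with crRNA 3. At most 3 mismatches left 0 of 7 near matches for each spacer. The settings with 8 Map2 libraries, the other dead baselines and all settings for active against dead were chosen after seeing the data. The cause of these shifts was not tested. FPKM without counts, 2 libraries per group and few fragments for short entries limit the precision.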
